A study of Homo sapiens with 27 samples.

Results

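Mitochondrial ribosomal protein genes were followed in 3 human cancer cell lines kept under low oxygen. All genes named MRPL or MRPS with a number were taken, provided that a probe set of the array carried that symbol alone and the gene was no pseudogene. This gave 75 genes of the 19775 genes measured, 48 of them named MRPL for the large subunit and 27 named MRPS for the small subunit, with 140 probe sets together. The choice of the genes used their names and no expression value. RNA came from 3 established lines, each alone in standing for its type of cancer: PC-3, from a prostate carcinoma, SK-OV-3, from an ovarian one, and WM793B, from a melanoma. Each line was cultured for 72 h in 3 conditions, namely control cells at 21% oxygen, chronic hypoxia at a constant 1% oxygen, and cycling hypoxia with periods of 4 h or 12 h at 1% oxygen separated by 4 h at 21% oxygen. In the order that the methods give, each round of cycling ended at 21% oxygen, whereas chronic cultures had no reoxygenation. With 3 biological replicas for each of the 9 groups there were 27 arrays, and expression was a log2 value normalised by the authors with GC-RMA, on which a difference of 1 is a 2-fold difference. Differences were tested with limma in each line, p-values were adjusted by Benjamini-Hochberg over all probe sets of the array, and a gene was called when its adjusted p was under 0.05. Where a gene had several probe sets, the brightest was read.

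Mitochondria carry their own ribosome, which translates the few messenger RNAs of the mitochondrial genome, all of them for subunits of the respiratory chain and the ATP synthase. Its ribosomal RNAs are made inside the organelle, whereas every one of its proteins is encoded in the nucleus, made in the cytosol and imported. Part of these proteins descend from those of bacterial ribosomes, and the others were acquired later and have no bacterial counterpart.

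A log2 value of 5 was taken here as the noise level, and the brightest probe set of all 75 genes was above it in every group. The study also names a noise level of 5 but not its scale. Expression values that it gives beside that level exceed the highest log2 value of these data, 15.52, so its scale reads as linear. The level used here is thus stricter than that of the study, which is 2.32 on the log2 scale. All 75 genes passed that level too, and the shares of all genes above it that fell under chronic hypoxia were 30.2%, 17.8% and 14.5% in the 3 lines. Replicate arrays correlated with Pearson's r from 0.994 to 0.9975 over all probe sets. Of 7 genes long known to be induced by hypoxia, among them those for VEGFA and the kinase PDK1, 6, 7 and 6 rose under chronic hypoxia in the PC-3, SK-OV-3 and WM793B line. The lines matched their labels in part. HOXB13, a marker of the prostate lineage, averaged 11.04 in control PC-3 cells and 8.80 under chronic hypoxia, PAX8 of the Muellerian lineage averaged 9.48 in control SK-OV-3 cells, and SOX10 of melanocytes 10.43 in control WM793B cells. Other markers went against the labels. The ovarian marker WT1 stood at 4.00 in control SK-OV-3 cells, below its 5.84 in the PC-3 and 6.80 in the WM793B line, MITF of melanocytes was higher in control SK-OV-3 cells (9.26) than in control WM793B cells (8.38), and the prostate markers KLK2, KLK3 and FOLH1, the ovarian marker MUC16 and the pigment cell markers PMEL, MLANA and TYR stayed under a log2 value of 5 in every line. Of the markers of other cell types, PTPRC, CD3E, CD14 and CDH5 lay at or near the floor of the table in control cells of all lines, and PECAM1 of endothelium passed the noise level in PC-3 cells, at 5.58 in control cells and 6.57 under chronic hypoxia; its part in the results was not tested. In such bulk RNA, fewer cells with a transcript and less of it per cell cannot be told apart, and a level is relative to all RNA on the array.

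In PC-3 cells under chronic hypoxia, 64 of the 75 genes fell and 3 rose. Among all genes, 22.3% fell and 13.1% rose in this comparison, and among the 9628 genes above the noise level in PC-3 cells 42.3% fell. The median log2 change of the 75 genes was -0.72, against -0.17 for the genes above the noise level, and the quartiles were -0.98 and -0.41. At least a 2-fold fall was found for 17 of the 75 genes, against 7.2% of all genes. For 2-fold falls the share among genes above the noise level was not computed in any line. MRPL15, a protein of the large subunit, changed most. Its values were 8.76, 8.73 and 8.84 on the 3 control arrays, 6.70, 6.58 and 6.82 on the arrays of chronic hypoxia, and 7.72, 7.96 and 8.06 on those of cycling hypoxia. All 3 groups were therefore separate, with the chronic arrays lowest, and the fall under chronic hypoxia was 2.08 ± 0.10 (SE, n = 3 per group) on the log2 scale, or 4.22-fold (adjusted p = 2.2e-05).

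Further large falls in PC-3 cells came from both subunits. MRPL1, part of the mobile stalk beside the exit site for tRNA, read 8.59, 8.68 and 8.56 in control cells and 6.73, 6.87 and 6.81 under chronic hypoxia, a fall of 1.81 ± 0.05 (adjusted p = 3.5e-06). MRPS25, a small subunit protein with no bacterial counterpart, went from 7.87, 7.87 and 7.78 to 6.30, 6.38 and 6.25, a fall of 1.53 ± 0.06 (adjusted p = 1.3e-05). MRPL46, another protein without a bacterial counterpart, stood at 7.90, 8.06 and 7.87 in control cells and at 6.46, 6.55 and 6.73 under chronic hypoxia, a fall of 1.36 ± 0.08 (adjusted p = 4.2e-05). No array of chronic hypoxia reached a control array for any of these genes. The other genes with a fall of more than 1.2 on the log2 scale were MRPS12 (1.33), MRPS31 (1.31), MRPS28 (1.30), MRPL4 (1.25), MRPL50 (1.25) and MRPS18A (1.22). Beside MRPS6 and MRPL17, which are described further on, MRPL2 was the only gene that rose, by 0.41. Exceptions without a call were MRPS5 (-0.03), MRPL14 (-0.04), MRPL48 (-0.08), MRPL23 (-0.09), MRPL44 (-0.13), MRPL43 (-0.16), MRPL10 (-0.20) and MRPL54 (0.15).

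**Figure D1:**
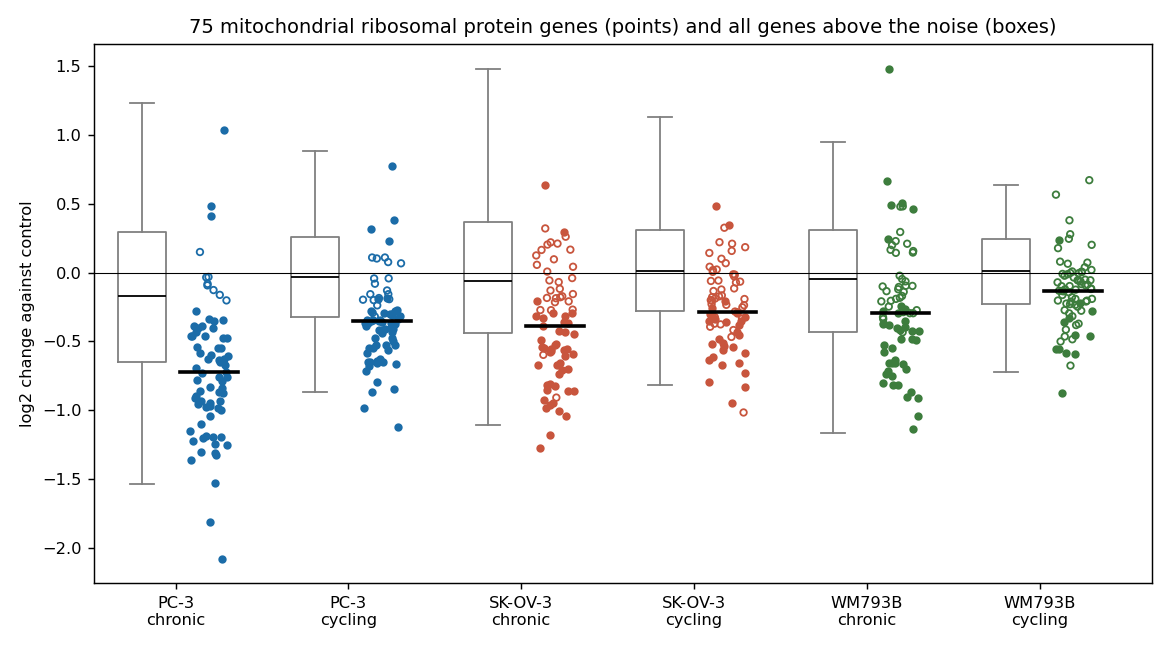
Change of each of the 75 genes against control (points, log2 scale; filled where the adjusted p was under 0.05), by cell line and condition, with the median as a thick line; boxes show the median and quartiles of all genes above the noise level in that line and whiskers their 5th and 95th percentiles, without their outliers. The median of the 75 genes lay below that of the other genes in all 6 comparisons, from -0.72 in PC-3 cells under chronic hypoxia to -0.13 in WM793B cells under cycling hypoxia.

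In SK-OV-3 cells under chronic hypoxia, 44 of the 75 genes fell and 2 rose, where 13.4% of all genes fell and 11.3% rose. Among the genes above the noise level 26% fell. The median log2 change was -0.39, against -0.06 for those genes, and 4 members fell at least 2-fold against 3.29% of all genes. None of these 4 fell 2-fold in PC-3 cells. MRPS10, a protein of the head of the small subunit, read 10.07, 10.23 and 10.19 in control cells, 8.77, 8.85 and 9.06 under chronic hypoxia and 9.96, 10.00 and 9.54 under cycling hypoxia. Its fall under chronic hypoxia was 1.27 ± 0.14 (adjusted p = 0.0015), whereas the same gene fell by 0.28 in PC-3 and 0.38 in WM793B cells. MRPL58, a peptidyl-tRNA hydrolase built into the large subunit, went from 9.71, 9.70 and 9.73 to 8.65, 8.30 and 8.66, a fall of 1.18 ± 0.11 (adjusted p = 0.00077). It also fell in PC-3 cells, by 0.97, and read 7.85, 7.89 and 7.79 in control and 7.84, 7.89 and 7.73 in chronically hypoxic WM793B cells, where the arrays of both groups overlapped.

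MRPS15 and MRPS16, both small subunit proteins with bacterial counterparts, completed the 2-fold falls in SK-OV-3 cells. MRPS15 was the brightest of them, at 12.96, 13.14 and 13.09 in control cells, 11.98, 11.90 and 12.19 under chronic hypoxia and 12.19, 12.06 and 12.12 under cycling hypoxia. It fell by 1.04 ± 0.08 (adjusted p = 0.00046) under chronic and by 0.94 ± 0.08 (adjusted p = 0.0013) under cycling hypoxia, and the arrays of both conditions overlapped each other. MRPS16 went from 9.46, 9.57 and 9.66 to 8.46, 8.51 and 8.69, a fall of 1.01 ± 0.09 (adjusted p = 0.00059). The genes that rose were MRPL17 and MRPL14, the latter by 0.30. Of the genes that fell in PC-3 cells, 22 were not called in SK-OV-3 cells, 7 of them with a log2 change above 0 there, such as MRPL16 (0.22), MRPS2 (0.26) and MRPS21 (0.32).

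In WM793B cells under chronic hypoxia, 35 genes fell and 6 rose, where 10.5% of all genes fell and 8.23% rose, and where 20.1% of the genes above the noise level fell. The median log2 change was -0.29 against -0.05. Only 2 genes fell at least 2-fold, a smaller share than the 3.36% of all genes. MRPS25 was one of them, with 7.34, 7.19 and 7.21 in control cells and 6.16, 6.07 and 6.11 under chronic hypoxia, a fall of 1.13 ± 0.06 (adjusted p = 0.00029). For the SK-OV-3 line MRPS25 lay near the noise level, at 5.75, 6.10 and 6.23 in control cells and 4.78, 5.76 and 4.82 under chronic hypoxia, with overlapping arrays and no call (-0.91, adjusted p = 0.11). MRPL23, a protein at the exit of the peptide tunnel, was the other gene with a 2-fold fall. It stood at 10.38, 10.31 and 9.88 in control cells and at 9.19, 8.88 and 9.38 under chronic hypoxia, a fall of 1.04 ± 0.17 (adjusted p = 0.011), while in the PC-3 line it changed by -0.09 and in the SK-OV-3 line by 0.20, without a call. The genes that rose were MRPS6, MRPS30 (0.66), MRPL10 (0.51), MRPL43 (0.49), MRPL17 (0.46) and MRPS17 (0.24). The call on MRPS30 was lost when any of 7 of the 9 arrays was left out. The number of calls in this line depended on the variance model. With an intensity trend and robust priors in limma, 10 of the 75 genes were called in place of 41, 9 of them lower, and 5.71% of all genes were called.

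**Figure D2:**
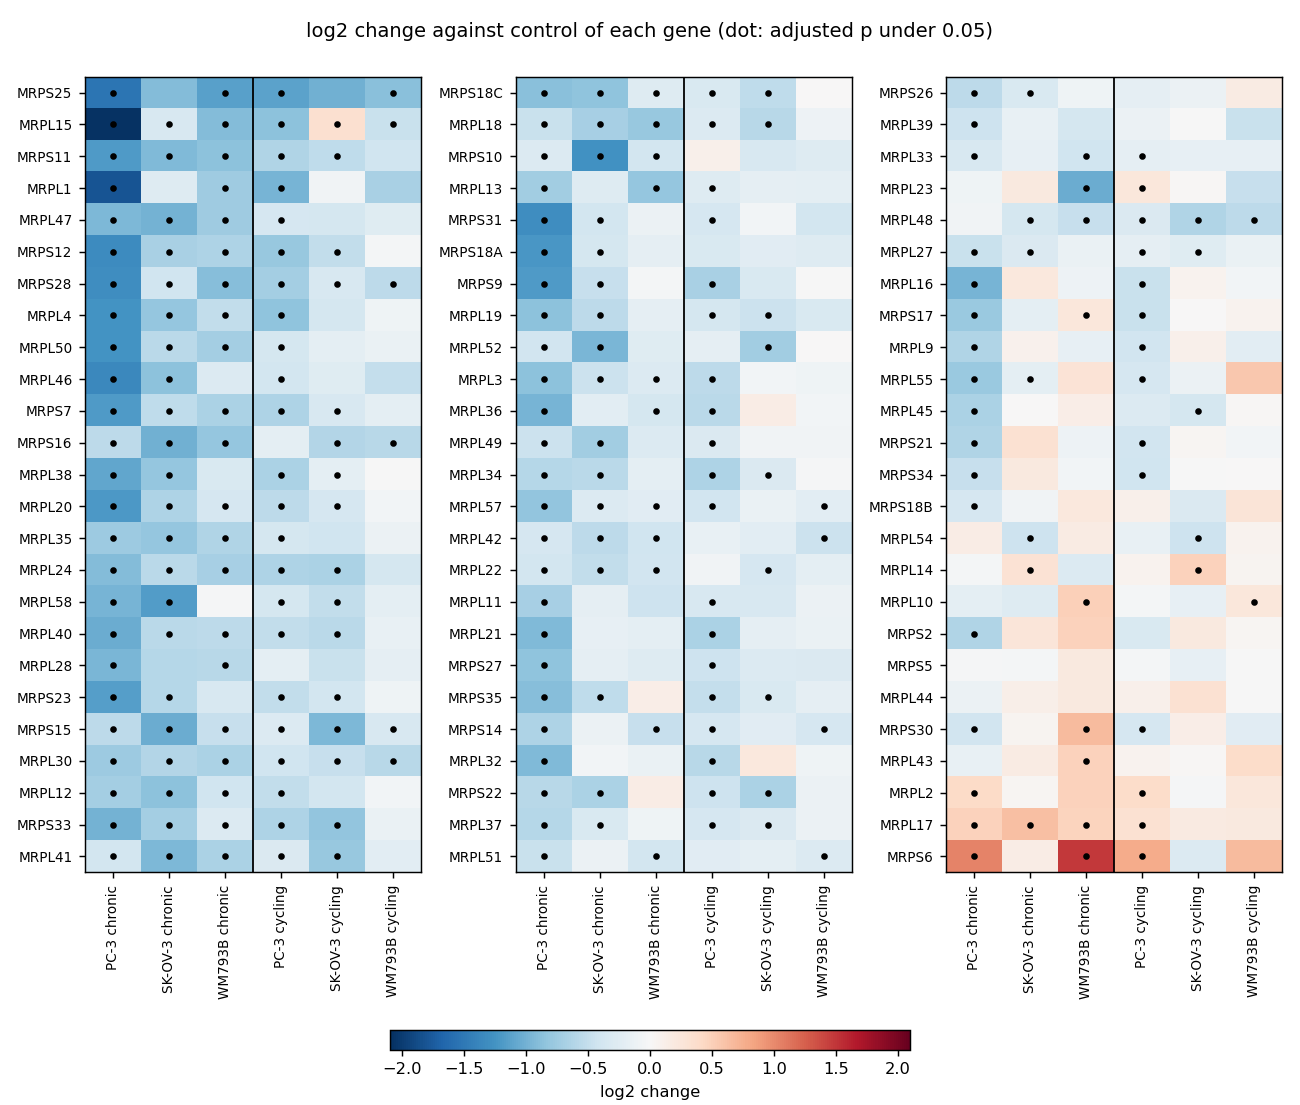
Log2 change against control of every one of the 75 genes, ordered by the mean over the 3 lines under chronic hypoxia, with chronic hypoxia on the left and cycling hypoxia on the right of each panel; blue is lower and red higher than control, and a dot marks an adjusted p under 0.05. Under chronic hypoxia 71 of the 75 genes are blue in the PC-3 columns of the panels, 61 in the SK-OV-3 columns and 59 in the WM793B columns. MRPS6 and MRPL17 stand in the last rows.

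Under chronic hypoxia 25 genes fell in all 3 lines, 26 in 2 lines, 16 in 1 line and 8 in none. Of all genes, 3.25% fell in all 3 lines. With limma's intensity trend and robust priors 6 of the 75 genes fell in all 3 lines in place of 25, against 1.05% of all genes, namely MRPL15, MRPL18, MRPL41, MRPL47, MRPS16 and MRPS28. Ranked by the smallest of their 3 changes, the first 8 were MRPS11, MRPL47, MRPS12, MRPL35, MRPL30, MRPL24, MRPL50 and MRPL40. MRPS11, which lies on the platform of the small subunit, read 8.57, 8.56 and 8.40 in control PC-3 cells and 7.37, 7.30 and 7.27 under chronic hypoxia, a fall of 1.20 ± 0.05 (adjusted p = 1.6e-05). In SK-OV-3 cells it went from 8.07, 8.17 and 8.01 to 7.19, 7.02 and 7.28, a fall of 0.92 ± 0.09 (adjusted p = 0.00081). In WM793B cells the change was from 8.11, 8.13 and 7.74 to 6.99, 7.03 and 7.36, a fall of 0.87 ± 0.15 (adjusted p = 0.012), and this call was lost without control replicate 1. Chronic and control arrays of MRPS11 were separate in every line, and its response did not differ between the lines beyond the threshold (F-test, adjusted p = 0.22).

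MRPS12, the protein next to the decoding centre, was the next small subunit gene of this kind. Its control arrays read 9.86, 9.84 and 9.89 in PC-3 cells, 9.18, 9.38 and 9.26 for the SK-OV-3 line and 9.20, 9.29 and 9.18 for WM793B. Under chronic hypoxia the arrays read 8.52, 8.53 and 8.56 in PC-3 cells, 8.68, 8.60 and 8.51 for SK-OV-3 and 8.65, 8.55 and 8.504 for WM793B. The hypoxic arrays of the 3 lines overlapped one another, whereas every control array of PC-3 cells lay above those of the other lines, and the falls were 1.33 ± 0.07 (adjusted p = 3.2e-05), 0.67 ± 0.07 (adjusted p = 0.0014) and 0.66 ± 0.07 (adjusted p = 0.0025). MRPL47, the counterpart of a bacterial protein at the tunnel exit, fell by 0.94, 0.98 and 0.74 in PC-3, SK-OV-3 and WM793B cells. MRPL35 fell by 0.76, 0.81 and 0.64 in the same order, and MRPL30 by 0.76, 0.61 and 0.66. For these 3 genes the F-test of the difference between the lines gave adjusted p of 0.23, 0.65 and 0.70. Of the genes named here, only MRPL47 kept its WM793B call under the intensity trend with robust priors, and the SK-OV-3 call of MRPL50 (0.56, adjusted p = 0.035) was lost when any of 8 of the 9 arrays was left out.

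**Figure D3:**
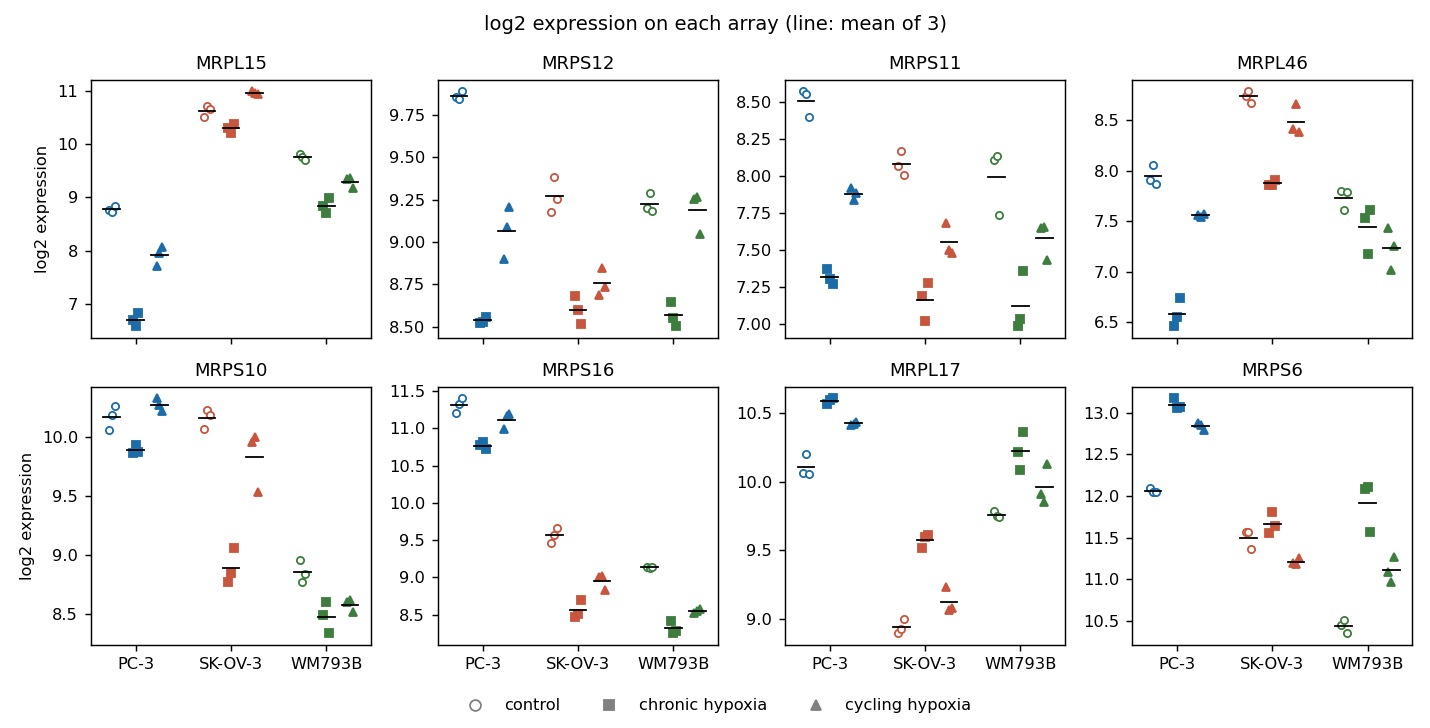
Log2 expression of 8 genes on each of the 27 arrays, with open circles for control, squares for chronic and triangles for cycling hypoxia and a line for the mean of 3; the vertical scale differs between panels. MRPL15, MRPS12 and MRPS11 are lowest under chronic hypoxia in all lines, MRPS10 falls farthest in SK-OV-3 cells, MRPL17 lies above control under chronic hypoxia in all 3 lines and MRPS6 in PC-3 and WM793B cells.

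MRPS11 and MRPL46 stand back to back on chromosome 15, with starts 320 bases apart on opposite strands, and are the only such pair among the 75 genes. In SK-OV-3 cells MRPL46 went from 8.74, 8.79 and 8.68 to 7.86, 7.85 and 7.91 under chronic hypoxia, a fall of 0.86 ± 0.08 (adjusted p = 0.00063), next to the fall of 0.92 for MRPS11. In WM793B cells MRPL46 changed by -0.30 ± 0.15 (adjusted p = 0.34) where MRPS11 fell by 0.87. Of the 320 bases between both starts, the 250 before the MRPS11 start are printed because the 2 genes share them (RefSeq, GRCh38.p14, chr15:88467458-88467707, plus strand). None of the 5 motifs searched in the promoters is among these letters, but the window of MRPL46 reaches farther and has a YY1 match just after the MRPL46 start, which is printed with the match in capitals and its position from that start.
MRPS11 and MRPL46: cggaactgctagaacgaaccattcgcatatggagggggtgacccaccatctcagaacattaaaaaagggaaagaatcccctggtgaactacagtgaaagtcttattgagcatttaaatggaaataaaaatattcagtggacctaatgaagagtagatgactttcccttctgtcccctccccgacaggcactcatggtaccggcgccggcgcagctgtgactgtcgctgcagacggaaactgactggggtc
MRPL46, YY1, position 8 (chr15:88467362-88467390, minus strand): gggagaacgaAAGATGGCGgcgcccgtaa

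A further 10 genes had a measured neighbour outside the group in the same arrangement, with starts within 500 bases. All 10 of these genes fell in PC-3 cells under chronic hypoxia, and of their 10 neighbours 6 fell and 1 rose. In SK-OV-3 cells 8 of the 10 genes and 4 of the neighbours fell, and in WM793B cells 5 of the genes and 2 of the neighbours. Of all genes 22.3%, 13.4% and 10.5% fell in PC-3, SK-OV-3 and WM793B cells. Above the noise level these shares were 42.3%, 26% and 20.1%. Whether neighbours changed together was not tested.

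Promoter sequences were listed for 67 of the 75 genes, each 250 bases before to 50 after the start. Motifs were searched on both strands, and a match is a description of letters and not a site. AAGATGGCG, which fits the factor YY1, lay in 12 of the 67 windows, or 17.9%, against 1.85% of 27305 gene windows and 2.74% of those of protein-coding genes. CCGGAAGT, which fits ETS factors such as GABP, lay in 10 windows, or 14.9%, against 4.44% of all and 6.19% of protein-coding genes. CGCATGCG, the core of the NRF1 site, lay in 3 windows, or 4.48%, against 2.19% of all and 2.88% of protein-coding genes. CACGTG was found in 8.96% of the windows, against 7.43% of all and 8.88% of protein-coding genes. ACGTG, the core of the hypoxia response element, which is contained in CACGTG, was found in 28.4%, against 21.6% of all and 23.7% of protein-coding genes. Of the genes that fell in all 3 lines, 22 had a window, with YY1 letters in 4, ETS letters in 3, NRF1 letters in 2, CACGTG in 2 and ACGTG in 3. The YY1, ETS and NRF1 matches of those genes are printed with up to 10 bases on each side, the match in capitals, and with its position from the start of the gene.
MRPL20, ETS, position -44 (chr1:1407320-1407347, minus strand): gaccttcgccCCGGAAGTatcgcagggg
MRPL3, ETS, position -32 (chr3:131502986-131503013, minus strand): gtaaaacgcaCCGGAAGTgggtccggcg
MRPL47, ETS, position -39 (chr3:179604660-179604687, minus strand): gcttgagacgCCGGAAGTgacgctatcg
MRPL22, NRF1, position -23 (chr5:154941040-154941067, plus strand): cagagtattgCGCATGCGtgctgtccag
MRPS18C, NRF1, position -135 (chr4:83455913-83455940, plus strand): aaaggtgctgCGCATGCGtattgaaaaa
MRPL22, YY1, position 35 (chr5:154941098-154941122, plus strand): gggagggcgaAAGATGGCGgcggca
MRPL42, YY1, position 8 (chr12:93467512-93467540, plus strand): ggattgaaacAAGATGGCGggttcgtggt
MRPL50, YY1, position 23 (chr9:101398577-101398605, minus strand): gatctcatcgAAGATGGCGgcgcgatctg
MRPS10, YY1, position 9 (chr6:42217834-42217862, minus strand): cgggaccggcAAGATGGCGgcgcggacag

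MRPL17, a large subunit protein with a bacterial counterpart, was the only gene of the 75 that rose in all 3 lines under chronic hypoxia. It read 10.07, 10.20 and 10.05 in control PC-3 cells and 10.57, 10.60 and 10.61 under chronic hypoxia, a rise of 0.48 ± 0.04 (adjusted p = 0.00015). In SK-OV-3 cells it went from 8.90, 8.93 and 9.001 to 9.52, 9.60 and 9.61, a rise of 0.63 ± 0.05 (adjusted p = 0.00053), and in WM793B cells from 9.79, 9.75 and 9.74 to 10.22, 10.09 and 10.36, a rise of 0.46 ± 0.09 (adjusted p = 0.022). No control array reached an array of chronic hypoxia in any line. The call in WM793B cells was lost with limma's intensity trend and robust priors (adjusted p = 0.15), which left no gene that rose in all 3 lines, and also without chronic replicate 1 or any control array of that line. Under cycling hypoxia MRPL17 rose in PC-3 cells by 0.32 and changed by 0.18 (adjusted p = 0.094) and 0.20 (adjusted p = 0.39) in SK-OV-3 and WM793B cells. Its promoter was the only one of the 67 with 2 matches to the NRF1 core.
MRPL17, NRF1, position -80 (chr11:6683403-6683430, minus strand): ggctctgatgCGCATGCGcaaacacgtt
MRPL17, NRF1, position -42 (chr11:6683365-6683392, minus strand): cgagctaaggCGCATGCGttccctgaaa

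MRPS6, a protein of the small subunit platform, showed the largest rise. Its arrays read 12.10, 12.05 and 12.04 in control PC-3 cells, 13.17, 13.06 and 13.06 under chronic and 12.87, 12.85 and 12.80 under cycling hypoxia, so that the 3 groups were separate. The rise was 1.03 ± 0.04 (adjusted p = 7.2e-06) under chronic and 0.77 ± 0.04 (adjusted p = 7e-05) under cycling hypoxia. In WM793B cells MRPS6 went from 10.45, 10.51 and 10.36 to 12.08, 12.11 and 11.57 under chronic hypoxia, a rise of 1.48 ± 0.16 (adjusted p = 0.0025), and read 11.09, 10.97 and 11.27 under cycling hypoxia, a change of 0.67 (adjusted p = 0.084). In SK-OV-3 cells control arrays at 11.57, 11.57 and 11.36 overlapped those of chronic hypoxia at 11.55, 11.80 and 11.64 (0.16, adjusted p = 0.31), and the F-test of the difference between the lines gave adjusted p = 4e-06. The response of SK-OV-3 cells to cycling hypoxia was lower than that of PC-3 cells by 1.06. That exceeds the PC-3 rise of 0.77, so the cycling mean of SK-OV-3 cells lay below control. MRPS6 shares its start on chromosome 21 with SLC5A3, the gene of a myo-inositol transporter that is known to respond to osmotic stress, so signal of the 2 genes may not be fully separate. The brightest probe set of SLC5A3 rose under chronic hypoxia by 0.78 in PC-3 cells (adjusted p = 0.0042) and by 0.85 in SK-OV-3 cells (adjusted p = 0.035), where MRPS6 was not called, and changed by 0.94 in WM793B cells (adjusted p = 0.14). A dimmer probe set of SLC5A3 rose by 2.93 in PC-3 cells and by 2.48 in WM793B cells. Its part in the values of MRPS6 was not tested.

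Fewer of the genes fell under cycling hypoxia. In PC-3 cells 52 fell and 4 rose, where 13% of all genes fell and 10.9% rose, and where 24.8% of the genes above the noise level fell. The median log2 change was -0.36, and MRPS25 was the only gene with a fall of 2-fold or more, from 7.87, 7.87 and 7.78 to 6.67, 6.65 and 6.85 (1.12 ± 0.06, adjusted p = 0.00012). MRPL1 fell by 0.98, MRPL15 by 0.86 and MRPL4, which lines the peptide tunnel, by 0.85. The genes that rose were MRPS6, MRPL2 (0.38), MRPL17 and MRPL23 (0.23).

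For the SK-OV-3 line under cycling hypoxia, 28 genes fell and 2 rose, where 7.66% of all genes fell and 8.34% rose, and 14.7% of the genes above the noise level fell. The median log2 change was -0.28. MRPS25, near the noise level in this line, read 5.03, 5.27 and 4.74 and had the lowest change, but without a call (-1.015, adjusted p = 0.11). Among the called genes, the largest falls after that of MRPS15 were those of MRPS33 (0.83), MRPL41 (0.79) and MRPL52 (0.73). MRPS33, a small subunit protein without a bacterial counterpart, read 8.54, 8.81 and 8.59 in control cells, 7.82, 7.99 and 8.02 under chronic and 7.80, 7.95 and 7.69 under cycling hypoxia, so that both hypoxic groups lay below control and overlapped each other. MRPL14 (0.48) and MRPL15 (0.34) rose, and MRPL15 lost its call without control replicate 3 or any cycling array. The count of called genes dropped from 30 to 18 without cycling replicate 3 or without control replicate 2.

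In WM793B cells under cycling hypoxia 11 genes fell and 1 rose, where 2.73% of all genes fell and 3.19% rose, and 5.08% of the genes above the noise level fell. The largest called falls were those of MRPS25 (0.87), MRPS16 (0.59), MRPL30 (0.58) and MRPS28 (0.56), and the gene that rose was MRPL10 (0.23). MRPS25 read 7.34, 7.19 and 7.21 in control cells and 6.41, 6.44 and 6.28 under cycling hypoxia (adjusted p = 0.0022), and MRPS16 read 9.14, 9.13 and 9.13 and then 8.52, 8.55 and 8.57 (adjusted p = 0.0025). These calls of MRPS25 and MRPS16 were made whichever array was left out. The count of 12 called genes was small and unstable. It came to between 3 and 7 without control replicate 1 or 2, any cycling array, or chronic replicate 1, and to 0 with limma's intensity trend and robust priors, while it rose to 30 with all 27 arrays in 1 fit and to 20 with dim probe sets left out. With the trend and robust priors 15 genes had an unadjusted p under 0.05, 12 of them lower. Only MRPL30, MRPS28, MRPL48 and MRPS15 fell in all 3 lines under cycling hypoxia, or 4 of the 75 genes against 0.445% of all genes. This count came to 0 with the intensity trend and robust priors and without WM793B control replicate 1 or 2 or cycling replicate 2 or 3, to 1 without WM793B cycling replicate 1, to 2 without WM793B chronic replicate 2, to 1 with the replicate number as a block and to 13 with all 27 arrays in 1 fit.

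The direct comparison of both hypoxic conditions asked whether the genes stood higher after cycling than after chronic hypoxia. In PC-3 cells 52 genes were higher under cycling hypoxia and 4 lower, where 14.6% of all genes were higher and 5.4% lower. Among the genes above the noise level 28.9% were higher and 10.3% lower. The largest difference was that of MRPL15, at 1.21 ± 0.10 (adjusted p = 0.00095), followed by MRPL46 at 0.98 and MRPS31 at 0.95. In SK-OV-3 cells 13 genes were higher and 4 lower, against 8.29% and 6.23% of all genes. The 13 higher genes were 17.3% of the members, near the 16.4% of the genes above the noise level that were higher. Of the latter 11.7% were lower. MRPS10 (0.94 ± 0.14, adjusted p = 0.0097), MRPL15 (0.68) and MRPL49 (0.67) differed most, and the 17 calls came to 11 without cycling replicate 1 or 3 and to 8 without cycling replicate 2. For MRPL49 the chronic arrays read 9.28, 9.24 and 9.22, the cycling arrays 9.94, 9.94 and 9.86 and the control arrays 9.94, 9.95 and 10.05, so that cycling and control arrays overlapped and chronic arrays stood apart.

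In WM793B cells 13 genes stood higher and 3 lower after cycling than after chronic hypoxia, against 2.6% and 1.92% of all genes. Among the genes above the noise level 5.21% were higher and 3.77% lower. Among the called genes MRPS30 (-0.90), MRPL18 (0.70) and MRPS12 (0.62) differed most. MRPL18, a protein of the central protuberance, read 10.31, 10.36 and 10.25 in control, 9.46, 9.40 and 9.65 in chronically hypoxic and 10.22, 10.23 and 10.16 in cycling cells. Cycling arrays therefore lay just under the control arrays and far above the chronic ones. The 16 calls came to between 4 and 8 without control replicate 1 or 2, cycling replicate 1 or 2, or chronic replicate 1 or 2, and to 0 with limma's intensity trend and robust priors, where 17 genes had an unadjusted p under 0.05. They came to 8 with the replicate number as a block and to 35 with all 27 arrays in 1 fit. This was the only comparison in which the deviations of all 3 pairs of same-numbered arrays had correlations above 0.1. Cycling and chronic hypoxia were both compared with the same control arrays, so their counts against control are not independent of each other.

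The response to chronic hypoxia differed between the lines for 60 of the 75 genes, where the same F-test called 41.3% of all genes. All 75 genes were above the noise level, and the share among genes above it was not computed for this test. The smallest p was that of MRPL16, a protein near the peptidyl transferase centre. It read 10.08, 10.13 and 10.06 in control and 9.05, 9.16 and 9.11 in chronically hypoxic PC-3 cells, 8.28, 8.22 and 8.39 and then 8.43, 8.63 and 8.49 in SK-OV-3 cells, and 9.29, 9.32 and 9.15 and then 9.21, 9.15 and 9.09 in WM793B cells. Only in PC-3 cells was it called, with a fall of 0.98, and its change in PC-3 cells was lower than that in SK-OV-3 cells by 1.20 and than that in WM793B cells by 0.87 (adjusted p = 2.6e-09 and 4.1e-07). MRPS35 and MRPS17 fell in PC-3 cells by 0.90 and 0.78, and in WM793B cells they changed by 0.14 (adjusted p = 0.20) and rose by 0.24, differences of 1.04 and 1.02 between the 2 lines. MRPL9 fell by 0.64 in PC-3 cells and changed by 0.10 in SK-OV-3 and by -0.17 in WM793B cells, without a call.

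For cycling hypoxia 39 genes differed between the lines, where 28.3% of all genes did. Here too the share among genes above the noise level was not computed. MRPL3, a protein that reaches toward the peptidyl transferase centre, fell in PC-3 cells from 11.74, 11.71 and 11.75 to 11.15, 11.22 and 11.20, by 0.55 ± 0.02 (adjusted p = 4.3e-05). In SK-OV-3 cells it read 11.50, 11.49 and 11.59 and then 11.44, 11.41 and 11.54 (-0.06, adjusted p = 0.63), and in WM793B cells it changed by -0.10 (adjusted p = 0.19). MRPL15 fell by 0.86 in PC-3 cells and rose by 0.34 in SK-OV-3 cells, a difference of 1.21 (adjusted p = 8.8e-07). The opposite order held for MRPL41 and MRPS15, which fell by 0.79 and 0.94 in SK-OV-3 cells and by 0.30 and 0.28 in PC-3 cells.

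Control levels of the genes already differed between the lines. SK-OV-3 and PC-3 cells differed in 59 of the 75 genes, 36 of them lower in SK-OV-3 cells, where 47.1% of all genes differed. WM793B and PC-3 cells differed in 59 genes, 47 of them lower in WM793B cells, against 45.7% of all genes. WM793B and SK-OV-3 cells differed in 63 genes, 43 of them lower in WM793B cells, against 48.4%. For these 3 comparisons the share among genes above the noise level, as all 75 genes were, was not computed. The medians of the differences were -0.18, -0.36 and -0.27. The widest range was that of MRPS17, at a mean of 9.68 ± 0.03 (SD, n = 3) for PC-3, 7.20 ± 0.06 for SK-OV-3 and 9.98 ± 0.04 for WM793B. MRPS16 was highest in PC-3 cells at 11.3, against 9.56 and 9.13 in SK-OV-3 and WM793B cells, MRPS35 ranged from 10.3 in SK-OV-3 to 8.19 in WM793B cells, and MRPL54 stood at 8.43 in SK-OV-3 cells against 6.41 and 6.70 in PC-3 and WM793B cells.

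**Figure D4:**
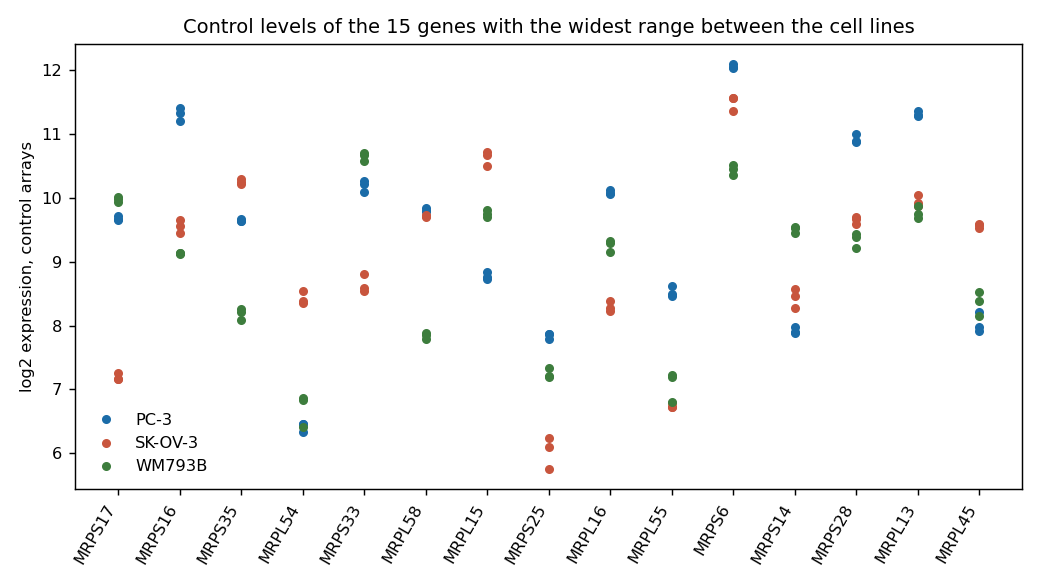
Log2 expression on the 3 control arrays of each line for the 15 genes with the widest range of mean control level between the lines, in falling order of that range. Arrays of 1 line lie close together while the lines stand apart, with MRPS17 spread over 2.79 on the log2 scale.

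By position in the ribosome, the small subunit had 25 of the genes and the large subunit 50, counting MRPS30 and MRPS18A, which structures place in the large subunit. Under chronic hypoxia 23 of the 25 and 41 of the 50 fell in PC-3 cells, 15 and 29 for the SK-OV-3 line and 11 and 24 for WM793B, with medians of -0.78 and -0.71, -0.49 and -0.35, and -0.27 and -0.31. Genes with a bacterial counterpart numbered 46, the MRPS18 paralogs among them, and those without numbered 26. MRPL55, MRPL57 and MRPL58 were in neither list. In that order the lists had 39 and 22 falls in PC-3 cells, 24 and 17 for the SK-OV-3 line and 26 and 8 for WM793B. The difference between these lists was not tested.

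Single sites of the ribosome held genes of unlike behaviour. In the stalk that recruits translation factors, MRPL12, which is also known to bind the mitochondrial RNA polymerase, read 8.97, 8.91 and 8.96 in control and 8.04, 8.26 and 8.37 in chronically hypoxic PC-3 cells and fell by 0.72, 0.86 and 0.42 in PC-3, SK-OV-3 and WM793B cells. MRPL10, on which it is anchored, changed by -0.20 (adjusted p = 0.077) and -0.27 (adjusted p = 0.055) in the PC-3 and the SK-OV-3 line and rose by 0.51 in WM793B cells, where it went from 9.54, 9.52 and 9.54 to 10.06, 10.08 and 9.97. MRPL11 at the stalk base fell by 0.69 in PC-3 cells and was not called in the other lines. At the tunnel exit, MRPL24 fell by 0.91, 0.57 and 0.70 in the same order, and MRPL45, which tethers the ribosome to the inner membrane, fell by 0.67 in PC-3 cells and changed by 0.01 and 0.14 elsewhere. The 3 related proteins MRPS18A, MRPS18B and MRPS18C fell by 1.22, 0.34 and 0.88 in PC-3 cells, and of these only MRPS18C fell in all 3 lines, by 0.85 in the SK-OV-3 and 0.27 in the WM793B line.

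The other genes of mitochondrial translation were read from lists of known factors. Of 4 mitochondrial ribosome proteins under other symbols, 4, 2 and 2 fell under chronic hypoxia in PC-3, SK-OV-3 and WM793B cells, with PTCD3 lower in each line by 0.98, 0.44 and 0.66. Of 23 genes of ribosome assembly, 16, 8 and 6 fell and 1, 2 and 2 rose, among them the GTPase MTG1 with falls of 2.24, 1.11 and 1.08. Of 15 translation factors, 12, 9 and 5 fell, including the elongation factor TUFM (0.62, 0.87 and 0.32). Of 11 genes for upkeep and transcription of mitochondrial DNA, 8, 4 and 4 fell and 1, 2 and 1 rose, and the packaging factor TFAM fell by 1.64, 0.47 and 0.67. Of all genes 22.3%, 13.4% and 10.5% fell in these comparisons, and of those above the noise level 42.3%, 26% and 20.1%. Under cycling hypoxia 11, 1 and 1 of the assembly genes fell and 1, 2 and 1 rose, 9, 6 and 0 of the translation factors fell and 1, 0 and 0 rose, and 5, 1 and 2 of the genes for DNA upkeep fell and 1, 0 and 0 rose, where 13%, 7.66% and 2.73% of all genes fell. The assembly genes of SK-OV-3 cells, with 4.35% lower, thus lay under that share. Above the noise level 24.8%, 14.7% and 5.08% of genes fell under cycling hypoxia. The 9.09% of DNA upkeep genes in SK-OV-3 cells and the 4.35% of assembly genes in WM793B cells lay under these shares as well.

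Of the 57 proteins of the cytosolic ribosome, 7 fell and 13 rose in PC-3, 18 fell and 2 rose in SK-OV-3 and 5 fell and 2 rose in WM793B cells under chronic hypoxia, with medians of 0.02, -0.06 and -0.02. These falls are shares of 12.3%, 31.6% and 8.77%, of which that of SK-OV-3 cells exceeded the 13.4% of all genes and the others did not exceed theirs. Above the noise level 42.3%, 26% and 20.1% of genes fell, so the SK-OV-3 share stood nearer to that of expressed genes. Under cycling hypoxia 4, 17 and 0 of the 57 cytosolic proteins fell and 6, 1 and 2 rose. The share of 29.8% that fell in SK-OV-3 cells stood above the 7.66% of all genes and the 14.7% of genes above the noise level. It was near the 34% of the large subunit. Of 9 known regulators of nuclear genes for mitochondria, none was called in WM793B cells under chronic hypoxia. In each of the PC-3 and SK-OV-3 lines 2 fell and 1 rose. The falls were 22.2% of the regulators, where 22.3% and 13.4% of all genes fell, so the PC-3 share was that of all genes. The rises were 11.1%, where 13.1% and 11.3% of all genes rose. Above the noise level 42.3% and 26% of genes fell and 25.3% and 21.1% rose, so the regulators lay under these shares. PPARGC1B fell by 1.19 in PC-3, PPARGC1A by 2.87 in SK-OV-3 and YY1 by 0.40 and 0.47 in these lines, while MYC rose by 0.59 and 1.20. NRF1 and GABPA were called in none of the 3 lines under chronic hypoxia, with changes between -0.80 and 0.17.

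**Figure D5:**
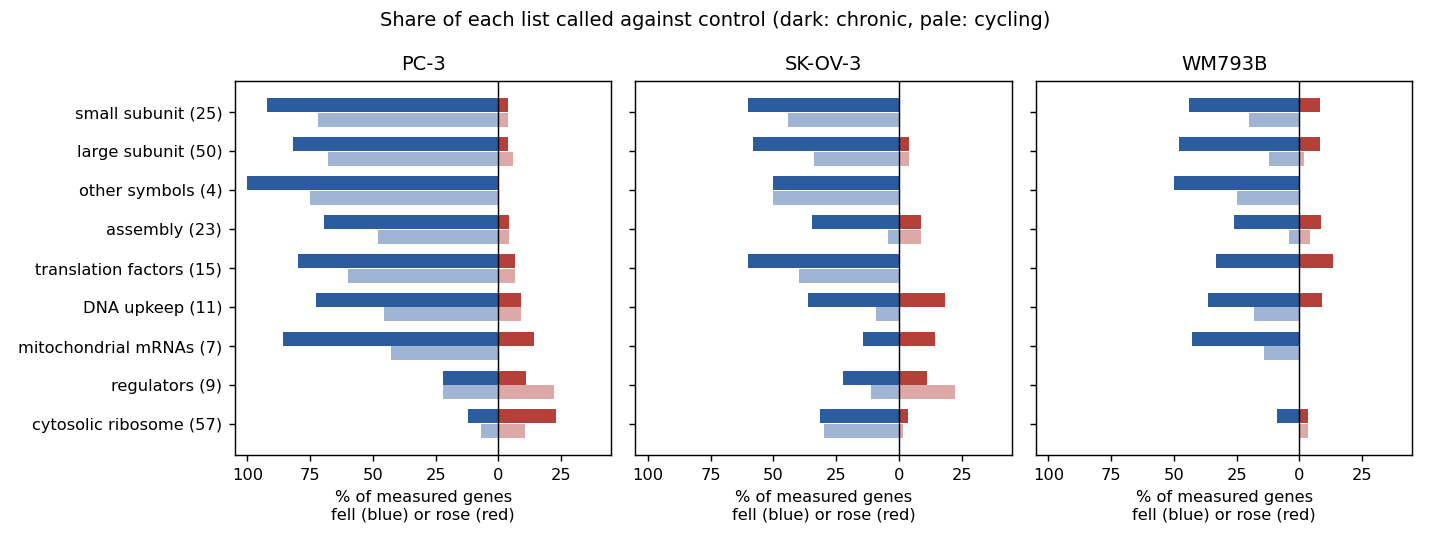
Share of the measured genes of each list that fell (blue, to the left) or rose (red, to the right) against control, for chronic (dark) and cycling hypoxia (pale) in each line, with the number of measured genes in brackets. Both ribosomal subunits reach from 44% to 92% lower under chronic hypoxia, against at most 31.6% for the cytosolic ribosome.

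Probe sets other than the brightest were read as well. Of these, 39 from 24 genes were above the noise level, and under chronic hypoxia 28, 17 and 13 fell for PC-3, SK-OV-3 and WM793B. None was called in the direction opposite to the brightest probe set of its gene in any of the 6 comparisons with control.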

How the data were processed

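Per the labels and the study's methods, total RNA was hybridised to Human Genome U133 Plus 2.0 arrays. The deposited table holds log2 values of all probe sets, which the authors made with GC-RMA (background correction by GC content, quantile normalisation, summary per probe set). Genes were named from the platform annotation: 41097 probe sets have 1 symbol, 1801 several and 11777 none. Members and lists were chosen with earlier results of these data known. limma 3.58.1 (R 4.3.3) was fitted on the 9 arrays of a line, or on all 27 for differences between lines and control levels, and tested on simulated data. Named genes were those with the largest called changes, called alike in all lines, with the smallest F-test p, the widest control range or a fixed role. The study's variation filter, which keeps 38 members, was an alternative. Labels call the replicas biological, and p-values measure their spread. The number of arrays limits precision. Same-numbered arrays of WM793B cells deviated together between cycling and chronic hypoxia, with correlations from 0.11 to 0.205. Between cycling hypoxia and control in that line, correlations ran from 0.0854 to 0.291. Any such pairing is read from the values and not from the labels. Promoters came from RefSeq (GRCh38.p14), the first window listed per gene, for 67 genes.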

Additional observations from a re-analysis of the deposited data

Results flagged for a closer look

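The response differed between the cell lines, by the F-test of limma's interaction terms, for 60 genes under chronic and 39 genes under cycling hypoxia. The same test called 41.3% and 28.3% of all genes, and its share among genes above the noise level was not computed. Under chronic hypoxia the smallest adjusted p were those of MRPL16 (4.9e-09), MRPL15 (5.6e-09), MRPS35 (9.98e-09), MRPS17 (3.4e-08) and MRPL9 (7.6e-08). Under cycling hypoxia they were those of MRPL3 (1.5e-06), MRPL15 (1.96e-06), MRPL41 (1.3e-05), MRPL9 (2.1e-05) and MRPS15 (3.99e-05). With 3 arrays in each group no single array was tested as an outlier.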

How the results depend on the processing

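No call on a named gene in a comparison with control changed direction under any alternative that held the gene. Calls between both hypoxic conditions and of the F-tests were not followed gene by gene, and MRPL17 and MRPL48 were not among these named genes. With a 2-fold threshold added, the called genes numbered 18, 4 and 3 under chronic hypoxia in PC-3, SK-OV-3 and WM793B cells, 1, 0 and 0 under cycling hypoxia and 1, 0 and 0 between both. The variation filter, which keeps only 38 of the 75 genes, left 36, 28 and 25 under chronic hypoxia, 32 under cycling hypoxia in PC-3 cells, 35 and 10 between both conditions in PC-3 and WM793B cells, 32 and 20 for the F-tests, and 35, 34 and 34 for control levels. Intensity trend and robust priors gave 10, 0 and 0 in WM793B cells under chronic, cycling and between both. With the replicate number as a block, counts were 19 for cycling hypoxia and 9 between both conditions in SK-OV-3 cells and 8 between both in WM793B cells; 27 pairs of same-numbered arrays had correlations of deviations from -0.117 to 0.291, with 9 above 0.1. All 3 pairs of a comparison were above 0.1 only between cycling and chronic hypoxia in WM793B cells. Between cycling hypoxia and control in that line the correlations were 0.159, 0.0854 and 0.291. Whether same-numbered arrays belong together was not tested. All 27 arrays in 1 fit gave 30 for cycling hypoxia in WM793B cells and 32 and 35 between both in SK-OV-3 and WM793B cells, and leaving out dim probe sets gave 20 for cycling hypoxia in WM793B cells. Leaving out each array in turn gave 18 to 29 for cycling hypoxia and 8 to 15 between both in SK-OV-3 cells, and 3 to 14 and 4 to 16 in WM793B cells. Settings chosen after seeing the data, the linear noise level and the counts over all 3 lines, stand beside their results. The cause of these shifts was not tested. Of 180 calls on named genes in comparisons with control, 33 were lost with trend and robust priors, 25 with the mean of a gene's probe sets, 25 with the block, 3 after quantile normalisation of the arrays again and 3 in the joint fit. The variation filter kept the genes of 111 of these calls and lost none of the 111. Over the 1620 fits without 1 array 187 were lost.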

Other observations

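The messenger RNAs that the mitochondrial ribosome translates were read from a list chosen after the files were seen. Its products, which are proteins, were not measured. Of 7 messenger RNAs of the mitochondrial genome with a probe set, 6 fell and 1 rose in PC-3 cells under chronic hypoxia, 1 fell and 1 rose in SK-OV-3 cells and 3 fell in WM793B cells. Of all genes 22.3%, 13.4% and 10.5% fell in these comparisons, so the 14.3% of SK-OV-3 cells was near that share. Above the noise level 42.3%, 26% and 20.1% of genes fell, and the 14.3% lay under the 26%. COX2, a subunit of cytochrome oxidase, fell by 0.39, 0.12 and 0.28 in PC-3, SK-OV-3 and WM793B cells. ND6, the subunit encoded on the other strand, rose by 0.96 in PC-3 cells and by 1.65 in SK-OV-3 cells and changed by -0.15 in WM793B cells. Under cycling hypoxia 3, 0 and 1 of the 7 fell and none rose, where 13%, 7.66% and 2.73% of all genes fell. Above the noise level these shares were 24.8%, 14.7% and 5.08%.

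MRPL48, a large subunit protein, went against the order of most of the other genes. Between cycling and chronic hypoxia its change was -0.22 ± 0.05 in PC-3 cells (adjusted p = 0.049) and -0.26 ± 0.06 for the SK-OV-3 line (adjusted p = 0.046), so cycling arrays were the lower ones, and it fell under cycling hypoxia in all 3 lines, by 0.30, 0.63 and 0.55. It was not alone, since 7 of the 75 genes had a change below 0 between both conditions in PC-3 cells and 21 in SK-OV-3 cells. In each of these lines 4 of them were called. With 1 array left out, the lower calls numbered 1 to 2 in PC-3 and 1 to 4 in SK-OV-3 cells. Whether those of MRPL48 were kept was not checked. MRPS6 and MRPL17 were also lower under cycling than chronic conditions in these 2 lines. Neither was called lower than control under cycling hypoxia, although the SK-OV-3 mean of MRPS6 lay below control.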
